A study of Homo sapiens with 2 samples.

Results

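The 5 core genes of fatty acid synthesis, FASN, SCD, ACACA, ACLY and ELOVL6, were examined in MDA-MB-453 cells as the rows of those names among the 16251 genes of the deposited count matrix, by library, deposited cluster and assigned cell cycle phase. MDA-MB-453 is a human breast cancer line that the labels call triple-negative and of WT genotype. The cells of both groups were grown in DMEM with fetal bovine serum. The IL1β + TNFα–treated group received both cytokines at 10 ng/ml for 24 hours and gave 1 library of 3163 cells, whereas the vehicle group received water for 24 hours and gave 1 library of 2822 cells. Each condition was therefore a single culture of 1 line with no replicate check. The intervals given cover counting error only, and no value here is a test of the treatment.

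Fatty acids are built from acetyl-CoA in the cytosol. ATP citrate lyase (ACLY) makes acetyl-CoA from exported citrate, acetyl-CoA carboxylase 1 (ACACA) converts it to malonyl-CoA, and fatty acid synthase (FASN) joins these units into palmitate. ELOVL6 then lengthens palmitate to stearate, and stearoyl-CoA desaturase (SCD) introduces the double bond that gives oleate. The SREBP transcription factors drive these genes together with the genes of cholesterol synthesis, and lipogenesis is commonly high in breast cancer cells.

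The IL1β + TNFα library held 69592446 UMIs, with a median of 21508 per cell, and the vehicle library 58587996, with a median of 20249. The libraries differed in assigned phase: 88.5% of IL1β + TNFα–treated cells were called G1, 10.2% S and 1.26% G2M, against 36.6%, 45.1% and 18.3% of vehicle cells. Markers of this luminal-type line, among them EPCAM, KRT8, KRT18, ERBB2 and SPDEF, were present in both libraries. Of 6 adipocyte markers 1 had a row in the count matrix, PLIN4, with 1 UMI in the treated library and 7 in the vehicle library. Markers without a row, here and below, could not be read. In counts per 1000000 UMIs (CPM), the immune genes with a row, 3 of 10, summed to 2.49 in treated and 0.65 in vehicle cells. The basal genes with a row, 2 of 4, summed to 4.45 and 1.66, and 1 of 4 erythroid genes stood at 0.30 and 0.96. The stromal and endothelial genes with a row, 2 of 9, summed to 20.3 and 20.9, nearly all of it COL1A1. Both libraries shared 8 cell barcodes.

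The genes lie at 3 places on chromosome 17 and on chromosomes 10 and 4 (GRCh38, GENCODE v44). FASN spans chr17:82078338-82098294, ACLY chr17:41866917-41930542 and ACACA chr17:37084992-37406836, all on the minus strand. SCD spans chr10:100347233-100364826 on the plus strand, and ELOVL6 chr4:110045846-110199199 on the minus strand. The 250 bases before the start site are shown for SCD and ACLY because the levels of these genes lay on opposite sides in the libraries (higher for SCD, lower for ACLY, in treated cells), while both windows carried CCAAT and GC boxes, the elements at which partners of SREBP bind. Capitals mark CCAAT or GGGCGG on either strand, from RefSeq on GRCh38.p14 at chr10:100346983-100347232 (plus) and chr17:41919023-41919272 (minus, 1 of several listed ACLY starts), neither of which overlaps an annotated exon of its gene. The ACLY window lies within the gene span given above.
SCD: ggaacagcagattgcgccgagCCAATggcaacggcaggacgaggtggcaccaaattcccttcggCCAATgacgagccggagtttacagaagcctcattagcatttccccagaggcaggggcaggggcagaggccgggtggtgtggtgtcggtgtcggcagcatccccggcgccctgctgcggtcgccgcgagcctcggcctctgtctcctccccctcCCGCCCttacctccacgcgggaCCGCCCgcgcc
ACLY: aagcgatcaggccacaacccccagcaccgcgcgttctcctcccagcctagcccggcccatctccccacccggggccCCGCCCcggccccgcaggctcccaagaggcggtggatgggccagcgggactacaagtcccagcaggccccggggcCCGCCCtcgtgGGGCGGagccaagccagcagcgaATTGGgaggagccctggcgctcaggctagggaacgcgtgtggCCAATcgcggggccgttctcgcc

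The SCD window held 2 CCAAT boxes, 229 and 186 bases before the start, and 2 GC boxes, at 33 and 11 bases. In the ACLY window 2 CCAAT boxes stood 65 and 23 bases before the start, with 3 GC boxes farther out. These motifs are common: CCAAT occurred in 32.0% and GGGCGG in 42.6% of 35116 RefSeq windows of that length. Windows were matched for SCD, ACLY, ACACA and ELOVL6 and not for FASN, and none held the letters TCACNCCAC of an SREBP element (0.883% of all windows), CACGTG (6.34%) or the consensus of κB sites (9.96%), on either strand. The motif matches are descriptions of letters, and no binding was measured.

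Treated cells had lower levels of ELOVL6, ACLY, FASN and, under total-count scaling alone, ACACA than vehicle cells, and a higher level of SCD, but ELOVL6 alone differed by at least 1.5-fold. That count of 1 of 5 genes lower and 0 of 5 higher compares with 19.9% lower and 9.01% higher among the 9192 genes at 5 CPM or more in either library. At the stricter 2-fold limit no member differed, against 7.48% of genes lower and 4.29% higher. Of all genes past 1.5-fold, 31.1% were higher in treated cells, a share of 51.5% with TMM scaling and 53.4% with DESeq2 size factors. The median log2 ratio (IL1β + TNFα over vehicle) was −0.26 over the 5 genes and −0.20 over all genes measured. TMM and DESeq2 size factors added 0.18 and 0.19 to every log2 ratio, which removed most of that shared offset.

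At the entry to the pathway, ACLY was at 27.3 CPM in treated cells (95% exact Poisson interval 26.1 to 28.6, 1903 UMIs) and at 36.2 CPM in vehicle cells (34.7 to 37.8, 2121 UMIs). The log2 ratio was −0.40 (95% interval −0.49 to −0.31), a 1.32-fold lower level. ACACA, the committed step, was the second least abundant of the 5 mRNAs, with 11.3 CPM (10.5 to 12.1) in treated cells against 12.7 CPM (11.8 to 13.6) in vehicle cells. Its log2 ratio of −0.17 (−0.31 to −0.02) changed sign, to 0.0098 and 0.026, with TMM and DESeq2 scaling. ACACA was the member with the closest levels in the 2 libraries.

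FASN gave the largest part of the summed UMIs of the 5 genes in each library, 47.4% in treated cells and 50.6% in vehicle cells. It stood at 80.4 CPM (78.3 to 82.5) in treated cells and at 96.0 CPM (93.5 to 98.5) in vehicle cells, for a log2 ratio of −0.26 (−0.31 to −0.20). This value was near the median of all genes, and 44.4% of measured genes had a lower ratio. ELOVL6, which lengthens what FASN makes, fell to 4.35 CPM in treated cells (3.88 to 4.87, 303 UMIs), against 8.02 CPM in vehicle cells (7.31 to 8.78, 470 UMIs). Its log2 ratio was −0.88 (−1.09 to −0.67), 1.84-fold lower, and only 9.29% of measured genes lay below it. ELOVL6 was past the 1.5-fold limit under either other scaling too (−0.70 and −0.69).

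SCD, the last enzyme of the route, was at 46.0 CPM in treated cells (44.5 to 47.7, 3204 UMIs) and at 36.7 CPM in vehicle cells (35.2 to 38.3, 2153 UMIs). The log2 ratio was 0.33 (0.25 to 0.40), 1.25-fold, above those of 83.9% of measured genes, and this was the only positive ratio among the 5 under total-count scaling. SCD accordingly made up 27.2% of the summed UMIs of the 5 genes in treated cells and 19.4% in vehicle cells. The sign depended on how phases were weighted: with treated cells weighted to the phase shares of vehicle cells, the log2 ratio of SCD was −0.035. That weighting gives the 324 treated S cells a share of 45.1% and the 40 treated G2M cells a share of 18.3%. The summed level of the 5 genes was 169.4 CPM in treated cells and 189.6 CPM in vehicle cells (log2 ratio −0.16). Counts at the 3′ end do not separate isoforms, and SCD has a processed pseudogene, so that its count is less certain.

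**Figure D1:**
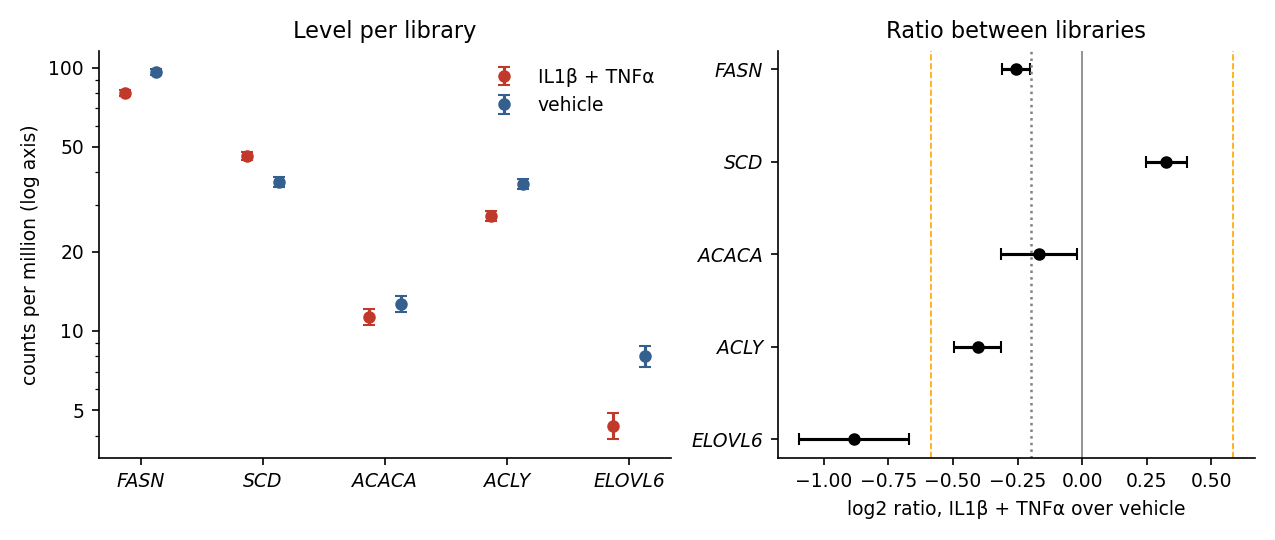
Left: level of each gene in CPM (log axis) in the IL1β + TNFα library (red) and the vehicle library (blue), with 95% exact Poisson intervals. Right: log2 ratio of IL1β + TNFα over vehicle with 95% intervals; the dotted line is the median of all measured genes (−0.20) and the dashed lines mark 1.5-fold, which ELOVL6 alone passed (−0.88), while SCD was at 0.33.

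Because phase differed between the libraries, the same comparison was made within phases. Phase had been assigned from expression in the same cells, so that these levels are descriptions. In G1 cells (2799 treated, 1032 vehicle), SCD was at 48.1 CPM in treated cells against 32.5 CPM in vehicle cells, for a log2 ratio of 0.56 (0.44 to 0.69). ELOVL6 was at 4.403 against 6.78 CPM (−0.62, −0.93 to −0.32) and ACLY at 26.8 against 35.5 CPM (−0.40, −0.53 to −0.27). FASN was at 80.3 against 89.3 CPM (−0.15) and ACACA at 11.3 against 11.6 CPM (−0.04, −0.25 to 0.18). ELOVL6 was again the 1 member of 5 at least 1.5-fold lower, against 14.8% of the 9005 genes measured in G1, and 0 of 5 were higher, against 9.39%. The median over the 5 genes was −0.15, as was that of all genes, and FASN lay at it.

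In S cells (324 treated, 1273 vehicle) the order of the libraries was turned for SCD, at 31.2 CPM in treated and 45.4 CPM in vehicle cells (log2 ratio −0.54, −0.75 to −0.34). ELOVL6 was at 4.30 CPM in treated and 9.88 CPM in vehicle cells (−1.20, −1.79 to −0.66), and FASN at 82.4 and 102.5 CPM (−0.32, −0.45 to −0.19). The intervals of ACACA (−0.19) and ACLY (−0.11) included 0. ELOVL6 was thus lower in treated cells in both phases, whereas SCD was not. The median of all genes was −0.15 in S as well, and whether the FASN ratio differed between phases was not tested.

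Read within a library, SCD was lower in S than in G1 in treated cells, with a log2 ratio of S over G1 of −0.62 (−0.83 to −0.43), and higher in S than in G1 in vehicle cells, at 0.48 (0.34 to 0.62). In treated cells 3.03% of measured genes had a lower S over G1 ratio than SCD, and in vehicle cells 88.8% did. These ratios do not depend on scaling between libraries. In vehicle cells SCD was lowest in G2M, at 23.2 CPM over 517 cells. The 40 treated G2M cells were under the minimum of 50 cells set for a group and were not described alone. Of the other members, ELOVL6 (0.54, 0.24 to 0.85) and FASN (0.20, 0.11 to 0.28) were also above G1 in vehicle S cells, while in treated S cells ACLY alone had an interval above 0 (0.31, 0.11 to 0.51). Of all measured genes, 34.9% had an interval above 0 in vehicle cells and 29.1% in treated cells. Within clusters 0, 1, 3 and 4 the vehicle ratios of ELOVL6 and FASN were positive, but each interval included 0. Which cells were called S differed as well: 255 of 324 treated S cells were in cluster 2, against 540 of 1273 vehicle S cells.

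A comparison chosen after these values were seen set cluster 2 apart. Outside it, SCD was at 23.7 CPM in 69 treated S cells against 48.1 CPM in treated G1 cells (S over G1 −1.02, −1.55 to −0.54), and at 50.9 CPM in 733 vehicle S cells against 32.5 CPM in vehicle G1 cells (0.65, 0.49 to 0.80). The pooled signs were thus still opposite without that cluster, with 35 SCD UMIs in the treated S cells. These pools mix clusters. Within single clusters the vehicle ratio of S over G1 was 1.07 in cluster 0, 0.42 in cluster 1 and 0.50 in cluster 4. It was 0.31 in cluster 3, with an interval that included 0 (−0.05 to 0.66). Outside cluster 2, treated S cells were too few for a ratio within a single cluster. Between S cells of cluster 2, SCD was at 33.1 CPM in treated and 38.6 CPM in vehicle cells, with an interval that included 0 (−0.22, −0.47 to 0.03).

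**Figure D2:**
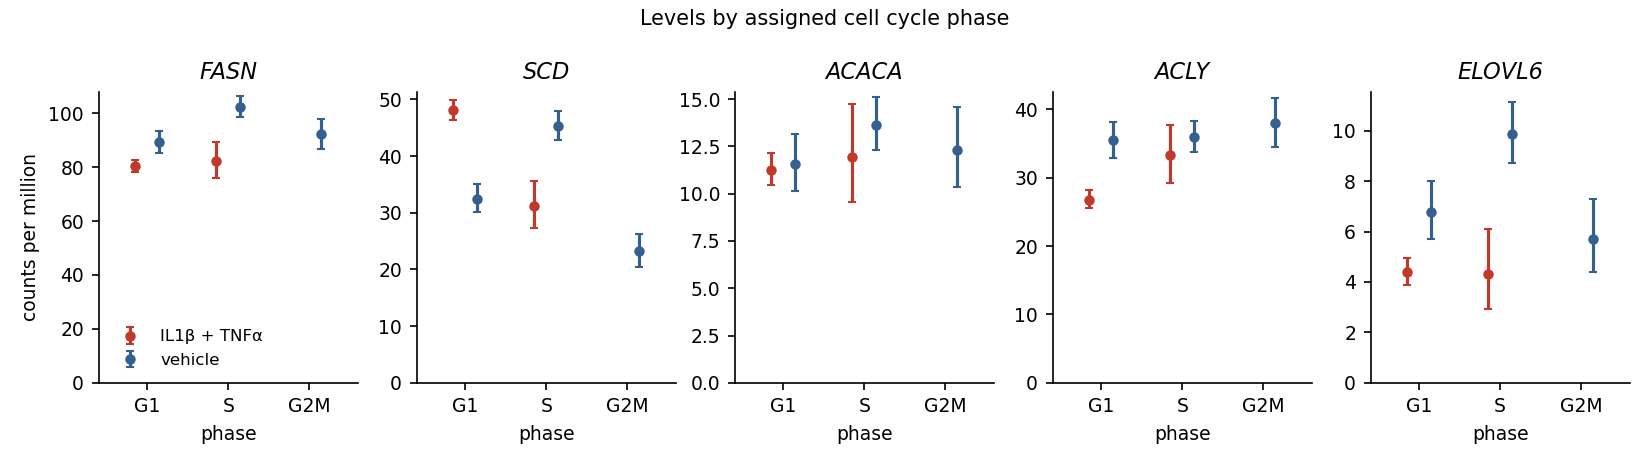
Level of each gene in CPM (axes from 0, with 95% exact Poisson intervals) by assigned phase, in IL1β + TNFα–treated (red) and vehicle (blue) cells; treated G2M, with 40 cells, is not drawn. SCD was at 48.1 CPM in treated and 32.5 CPM in vehicle G1 cells, and at 31.2 and 45.4 CPM in S cells, while ELOVL6 was lower in treated cells in both phases.

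The deposited table divides the cells into 6 clusters, made from expression in these cells, each with 134 to 1100 treated and 283 to 740 vehicle cells. ELOVL6 was lower in treated cells in each of the 6, with log2 ratios from −1.28 in cluster 0 to −0.48 in cluster 3, although the interval of cluster 5 included 0 (7 UMIs in treated cells). ACLY was most different in cluster 4, at 25.6 CPM in treated against 44.2 CPM in vehicle cells (−0.79, −1.06 to −0.52). FASN had log2 ratios of −0.35 to −0.19 in clusters 0 to 4, where the medians of all genes were −0.24 to −0.10, and was at 77.2 against 73.7 CPM in cluster 5, where the interval included 0. No interval of ACACA excluded 0 within any cluster.

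SCD and ELOVL6 had the widest ranges over clusters in both libraries. In treated cells SCD ran between 26.9 CPM in cluster 5 and 56.7 CPM in cluster 3, a 2.10-fold range, and in vehicle cells between 22.1 CPM in cluster 5 and 47.3 CPM in cluster 0, a 2.14-fold range. ELOVL6, with far fewer UMIs, ran between 2.77 CPM in cluster 5 and 6.32 CPM in cluster 3 in treated cells (2.28-fold), and between 5.29 CPM in cluster 5 and 9.37 CPM in cluster 1 in vehicle cells (1.77-fold). FASN spanned 1.34-fold in treated cells and 1.55-fold in vehicle cells, with its highest level in cluster 4 in both (92.8 and 113.9 CPM). In G1 cells alone, SCD was higher in treated cells with an interval above 0 in clusters 0 (0.56), 1 (0.45) and 3 (0.76), and the intervals of clusters 4 (0.10) and 5 (0.40) included 0. Over all phases, cluster 0 had SCD at 45.0 CPM in treated and 47.3 CPM in vehicle cells, so the G1 difference there was not visible without the split by phase.

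**Figure D3:**
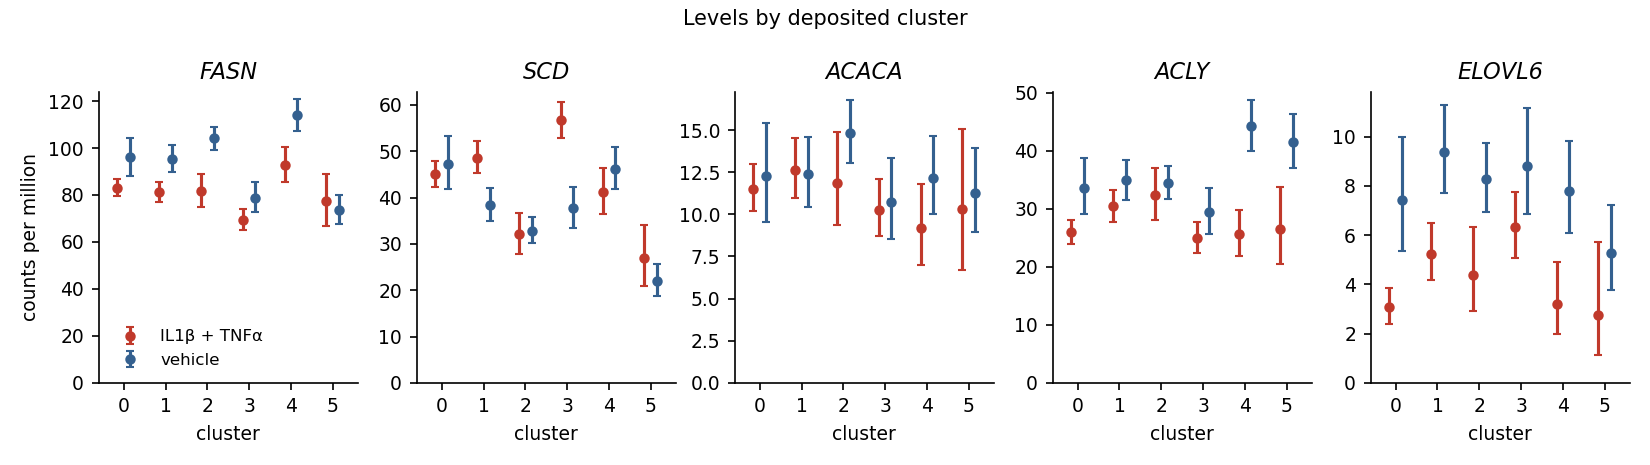
Level of each gene in CPM (axes from 0, with 95% exact Poisson intervals) in the 6 deposited clusters, for IL1β + TNFα–treated (red) and vehicle (blue) cells. SCD ran between 26.9 and 56.7 CPM in treated cells and between 22.1 and 47.3 CPM in vehicle cells, and ELOVL6 was lower in treated cells in every cluster.

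Per cell the counts were low, so cells were thinned to 15000 UMIs each, which left out 130 treated and 236 vehicle cells. At this depth FASN had a UMI in 67.4% of treated cells (exact binomial interval 65.7 to 69.0) and 73.5% of vehicle cells (71.8 to 75.2). SCD was seen in 40.8% of treated and 37.3% of vehicle cells, ACLY in 33.5% and 39.4%, ACACA in 15.5% and 16.7%, and ELOVL6 in 6.03% and 10.98%. Without thinning the shares were 78.7% of treated and 82.0% of vehicle cells for FASN, 50.02% and 45.1% for SCD, 44.04% and 50.9% for ACLY, 21.8% and 22.8% for ACACA, and 8.69% and 14.8% for ELOVL6. For each gene the shares had the same order of the libraries as the CPM levels, which come from the same counts. The intervals of the thinned shares overlapped for ACACA (14.3 to 16.9 in treated and 15.3 to 18.2 in vehicle cells) and for SCD (39.1 to 42.6 and 35.4 to 39.2). A culture of 1 line offers no cell type that lacks these genes, and the share owed to free RNA was not tested.

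SCD was unevenly spread over cells. The variance of its thinned counts was 1.79 times the mean in treated cells and 1.49 times in vehicle cells, where counting alone gives 1. Genes within 1.5-fold of its level had medians of 1.06 in treated and 1.05 in vehicle cells, and SCD lay above 98.0% of them in both libraries. The highest thinned count of SCD was 9 UMIs in a treated cell and 8 in a vehicle cell, while 59.2% of treated and 62.7% of vehicle cells had none. FASN, although more abundant, stood at 1.17 in both libraries, ACLY at 1.08 in treated and 1.11 in vehicle cells, ELOVL6 at 1.08 and 1.09, and ACACA at 1.01 and 1.03. Against genes within 1.5-fold of its own level, ELOVL6 lay above 89.1% in treated and 92.3% in vehicle cells. ACLY lay above 78.9% and 82.7%, FASN above 70.7% and 71.7%, and ACACA above 27.4% and 50.3%.

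Across cells the 5 mRNAs were only weakly related to each other. The points are cells of 1 library, which share its depth and its phase mix, and the values are descriptions. The highest Pearson r of the 10 pairs was that of FASN and SCD, 0.18 over 3163 treated cells and 0.13 over 2822 vehicle cells. SCD and ACLY gave 0.12 in treated and 0.05 in vehicle cells, SCD and ELOVL6 0.11 and 0.03, and the other pairs lay between −0.0013 and 0.07. Values this low in sparse counts show little either way.

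SCD had the highest r of the 5 genes with the genes of cholesterol synthesis, whose mean over 20 genes is less noisy than a single gene. Its r with the mean log-normalized level of the 20 cholesterol synthesis genes was 0.43 in treated cells and 0.29 in vehicle cells, and 0.45 and 0.32 in G1 cells alone. FASN gave 0.12 in treated and 0.09 in vehicle cells, ACLY 0.14 and 0.06, ELOVL6 0.12 and 0.04, and ACACA 0.06 in both. The log total UMIs of a cell had an r of −0.03 in treated and 0.01 in vehicle cells with the mean of the 5 genes.

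**Figure D4:**
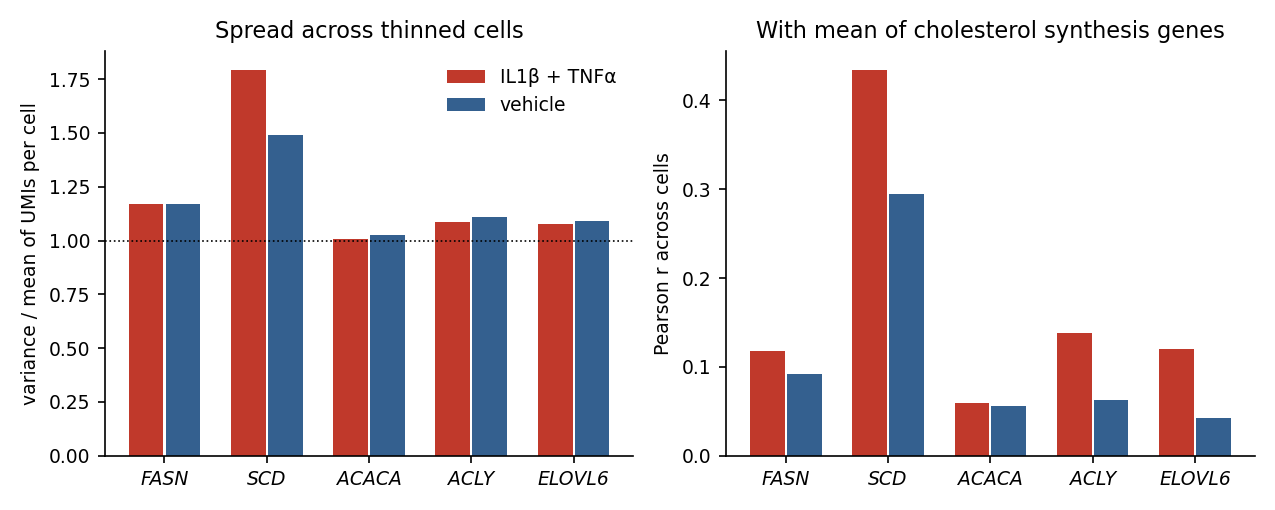
Left: variance over mean of UMIs per cell after thinning to 15000 UMIs, where the dotted line at 1 is counting alone. Right: Pearson r across cells between each gene and the mean log-normalized level of 20 cholesterol synthesis genes. Red bars are IL1β + TNFα–treated and blue bars vehicle cells; SCD was highest in both panels, at 1.79 and 1.49 and at 0.43 and 0.29.

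The genes whose level most resembled the mean of the 5 were ranked by Pearson r among genes at 20 CPM or more. With the mean of the cholesterol synthesis genes, that mean had an r of 0.37 in treated and 0.24 in vehicle cells. SCD alone had 0.43 and 0.29, and the other members 0.06 to 0.14 and 0.04 to 0.09. The ranking therefore need not hold for each member. In treated cells (4380 genes) the first 8 were HMGCS1 (0.33), FDPS (0.26), SQLE (0.25), SLC25A1 (0.21), INSIG1 (0.21), DHCR7 (0.20), MSMO1 (0.19) and SREBF2 (0.17). HMGCS1, FDPS, SQLE, DHCR7 and MSMO1 are enzymes of cholesterol synthesis, SLC25A1 exports citrate from mitochondria, and INSIG1 holds back SREBP processing. In vehicle cells (4798 genes) SQLE (0.20), AKT1 (0.18), RABL6 (0.18), SDF2L1 (0.18), CRACR2B (0.17), GUK1 (0.17), INSIG1 (0.17) and CCDC85B (0.16) came first, a more mixed group. The lowest values were those of HINT1 (−0.15), EIF1 (−0.14) and HNRNPA1 (−0.13) in treated cells, and of HNRNPA1 (−0.25), RPL10 (−0.21) and RPS3 (−0.18) in vehicle cells. The 95th percentile over all genes was 0.06 in treated and 0.08 in vehicle cells, and 16 of 18 cholesterol synthesis genes exceeded it in treated cells and 6 of 15 in vehicle cells. Of the genes of the cytokine response, NFKBIA was at −0.03 in both libraries, S100A9 at 0.09 in treated and 0.01 in vehicle cells, and TDO2 at −0.11 and 0.02. In treated cells S100A9 lay above the 95th percentile, as did TFF1, SREBF1 and ERBB2, and TDO2 lay toward the lowest genes. SREBF1 and ERBB2 were above it in vehicle cells too. The other values were those of MKI67 (−0.04 and −0.01), TOP2A (−0.02 and 0.01), PCNA (−0.03 and 0.06) and TFF1 (0.07 and 0.00). SREBF1 was at 0.07 in treated and 0.09 in vehicle cells and ERBB2 at 0.13 and 0.09.

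As a sum, the cholesterol synthesis genes had the signs of SCD for S over G1 but not for G2M over G1, in a comparison added after the SCD values were seen. In vehicle G2M cells their sum was at 1241 CPM, above that of G1, whereas SCD was at 23.2 CPM there against 32.5 CPM in G1. Their summed level was 1400 CPM in G1 and 1233 CPM in S in treated cells (S over G1 −0.18, −0.22 to −0.15), and 1057 CPM in G1 and 1244 CPM in S in vehicle cells (0.24, 0.21 to 0.26). In treated cells 12 of 20 had an interval below 0 and 1 above, against 18.7% and 29.1% of all measured genes. In vehicle cells 0 of 20 were below and 11 above, against 16.1% and 34.9%. HMGCS1, which makes the precursor of mevalonate, was at 54.8 CPM in S and 82.6 CPM in G1 treated cells, and at 34.4 CPM in S and 30.7 CPM in G1 vehicle cells.

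Neighbouring steps of lipid metabolism were read from lists chosen with earlier results known, and each count stands beside the 9.01% higher and 19.9% lower of all measured genes. Cholesterol synthesis had 6 of 20 genes at least 1.5-fold higher in treated cells and 0 lower, with a median log2 ratio of 0.37. HMGCS1 was at 79.3 CPM in treated and 33.1 CPM in vehicle cells, FDFT1 at 76.2 and 40.8, NSDHL at 29.7 and 16.5, and MSMO1 at 36.9 and 23.5. The median of this list was thus positive and that of the 5 fatty acid genes negative, −0.26, near the −0.20 of all measured genes. Both sets are known as SREBP targets. With TMM scaling the 2 medians were 0.55 and −0.08, and with DESeq2 size factors 0.56 and −0.06. In G1 cells the medians were 0.58 and −0.15. With TMM or DESeq2 scaling, counts added after the values were seen for this and the other lists, 10 of 20 cholesterol synthesis genes were past 1.5-fold higher.

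The 6 lists pooled next are those in which no measured gene passed 1.5-fold under total-count scaling. Their pooled count of 0 of 40 therefore follows from the grouping and is not a separate result. With TMM or DESeq2 scaling 6 of the 40 were higher and 0 lower, PGD, MDH1, MID1IP1, PRKAG1, FADS1 and OXSM, against 13.4% higher and 12.6% lower of all genes with TMM and 13.9% and 12.1% with DESeq2. Under total-count scaling the suppliers of acetyl-CoA and NADPH had 0 of 10 genes past 1.5-fold (median 0.02), as had the partners of the carboxylase (0 of 6, 0.17), the desaturases and their electron carriers (0 of 5, −0.03), the other genes of the elongation cycle (0 of 7, −0.10), the mitochondrial route of fatty acid synthesis (0 of 7, −0.10) and uptake and binding (0 of 5, −0.19). The 0.18 or 0.19 added by the other scalings changed the sign of every negative median of the neighbouring lists except, under TMM, that for uptake. Among the close paralogs, ELOVL1 was at 40.8 CPM in treated and 44.9 CPM in vehicle cells and ELOVL5 at 30.3 and 32.7 CPM. SCD5, the second human stearoyl-CoA desaturase, had 118 UMIs in treated and 257 in vehicle cells (1.70 and 4.39 CPM), ACACB, the carboxylase that regulates entry to oxidation, 22 and 71 UMIs, and ELOVL7 71 and 65 UMIs, all under 5 CPM.

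Downstream, 1 of 11 genes of acyl-CoA use and storage was at least 1.5-fold higher in treated cells and 2 were lower (median −0.08). DGAT2, which makes triglyceride, was at 12.7 CPM in treated and 6.52 CPM in vehicle cells (0.96), while AGPAT2 (75.6 and 116.3 CPM, −0.62) and AGPAT5 (4.48 and 7.66 CPM, −0.77), which acylate lysophosphatidic acid, were lower. Fatty acid oxidation had 2 of 14 genes higher, HADHB (32.2 and 18.6 CPM, 0.79) and ACADVL (53.0 and 33.1 CPM, 0.68), and 0 lower (median −0.06). With the other scalings LPIN2 and DECR1 were also past 1.5-fold higher, AGPAT2 was no longer past it, and AGPAT5 was past it with TMM alone.

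Of 12 regulators 1 was higher and 1 lower (median −0.02). NR1H3, the oxysterol receptor LXRα that induces SREBF1 and SCD in other settings, was at 23.7 CPM in treated and 9.30 CPM in vehicle cells (log2 ratio 1.35, 1.21 to 1.49), and its relative NR1H2 at 52.3 and 54.9 CPM. MLXIP, a glucose-sensing factor, was at 10.96 and 17.2 CPM (−0.65), and its partner MLX at 31.9 and 30.6 CPM. SREBF1, which favours fatty acid genes, was at 18.2 CPM in treated and 21.3 CPM in vehicle cells (−0.22), and SREBF2, which favours cholesterol genes, at 36.5 and 33.1 CPM (0.14). INSIG1 (63.5 and 44.2 CPM) and INSIG2 (69.2 and 48.7 CPM), which retain SREBP in the endoplasmic reticulum, had log2 ratios of 0.52 and 0.51. The escort SCAP was at 14.3 and 17.6 CPM (−0.30), the proteases MBTPS1 and MBTPS2 at −0.49 and −0.24, and TRIB3 at 0.03. With the other scalings INSIG1 and INSIG2 passed 1.5-fold and MLXIP did not. Processing of SREBP protein was not measured.

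**Figure D5:**
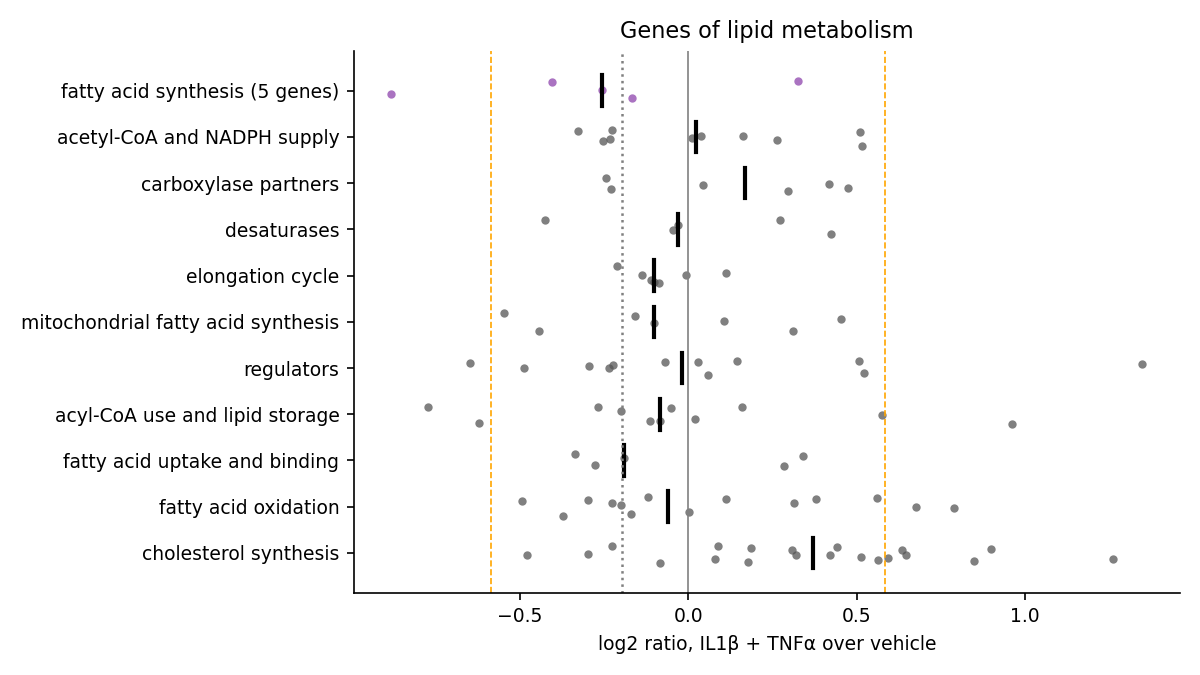
Log2 ratio of IL1β + TNFα over vehicle for each measured gene (points) of the 5 fatty acid synthesis genes (purple) and of 10 lists of lipid metabolism (grey), with list medians (black bars). The solid line is 0, the dotted line the median of all measured genes (−0.20) and the dashed lines 1.5-fold; the cholesterol synthesis median was 0.37 and that of the 5 genes −0.26.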

How the data were processed

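Libraries were made with the 10x Genomics 3′ v2 protocol. Per the study's methods, the authors counted UMIs with Cell Ranger 3.1.0 on GRCh38 and filtered in Seurat 4.0.4: genes in fewer than 10 cells were removed, as were cells with 50000 or more UMIs, 3000 or fewer or 5000 or more genes, or 15% or more mitochondrial UMIs. The deposited matrix holds raw UMI counts, which were used unchanged, and the deposited cell table gives library, cluster, phase and the percent of mitochondrial UMIs. Its 9 other columns were not used. The methods describe integration of both libraries for display in Seurat, with sctransform and the difference of the S and G2M scores regressed out; the clustering settings and the rule that turned scores into phases are not given in the sources used here. Counts summed per cell equalled the table for all 5985 cells. No doublet caller was run.

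Counts were summed per library and set to counts per 1000000 UMIs (CPM), with exact Poisson intervals and exact conditional binomial intervals for ratios (Python 3.11.15, SciPy 1.17.1). Genes at 5 CPM or more in either library counted as measured, and a gene was called at 1.5-fold or more with its interval on the same side of 0. Log-normalized levels used 10000 UMIs per cell. Alternatives included TMM (edgeR 4.0.16), DESeq2 1.42.0 size factors, phase, thinning, other limits and the omission of shared barcodes. The ratios, their intervals and the calls were checked on simulated Poisson library counts. Those counts follow the model of the intervals and hold no extra spread between cells. Named genes were the members and their paralogs, the correlation partners (1 is not reported here), the regulators, the called genes farthest from 0 in each list (at most 4), and the 8 highest and 3 lowest correlates per library. Members, lists and rules were chosen with earlier results of these data known.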

Additional observations from a re-analysis of the deposited data

Results flagged for a closer look

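SCD had opposite signs under the same contrast in the 2 libraries. The log2 ratio of S over G1 was −0.62 in IL1β + TNFα–treated cells and 0.48 in vehicle cells. Read the other way, the log2 ratio of IL1β + TNFα over vehicle was 0.56 in G1 cells and −0.54 in S cells. All 4 counting intervals excluded 0, but with 1 library per condition the difference between the libraries was not tested. The phases were assigned from expression in the same cells, and 255 of 324 treated S cells were in cluster 2. Between S cells of cluster 2 the log2 ratio of IL1β + TNFα over vehicle was −0.22, with an interval that included 0 (−0.47 to 0.03). Outside that cluster it was −1.10 (−1.64 to −0.61), from 69 treated S cells with 35 SCD UMIs.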

How the results depend on the processing

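No paired analysis was possible because each condition was 1 library. Depth limited ELOVL6 and ACACA most, at 0.0958 and 0.248 UMIs per treated cell. With TMM scaling the log2 ratios were 0.0098 for ACACA, 0.50 for SCD, −0.23 for ACLY and −0.079 for FASN and for the median of the 5, and with DESeq2 size factors 0.026, 0.52, −0.21 and −0.064. In G1 cells they were 0.56 for SCD, −0.62 for ELOVL6 and −0.15 for FASN and the median, and in S cells −0.54 for SCD, −0.11 for ACLY, −1.20 for ELOVL6 and −0.32 for FASN and the median. The comparison of G2M cells rests on 40 treated cells and gave −0.016 for SCD, −0.77 for ACACA and the median, −1.39 for ACLY, −0.45 for FASN and −2.24 for ELOVL6 (−7.57 to 0.29, 1 UMI in treated cells). Weighting treated cells to vehicle phase shares gave −0.035 for SCD. A fold limit of 2 left 0 members lower. Under per-cell means, thinning, totals without ribosomal and mitochondrial genes, a mitochondrial limit of 10%, and without shared barcodes or the deepest 10% of cells, each of the 5 ratios stayed within its main interval. The counts over all genes, 828 higher and 1831 lower, were 1275 and 1112 with DESeq2, 1156 lower with TMM, 1292 higher at 1 CPM or more, 484 and 880 at 20 CPM or more, and 1774 and 3141 with any UMI. The cause of these changes was not tested.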
